A study of Mus musculus with 6 samples.

Results

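Microtubules are hollow polymers of alpha- and beta-tubulin that serve as tracks for kinesins and dyneins, the motors that carry organelles, vesicles and RNA along axons and dendrites. Neurons also bind their microtubules with microtubule-associated proteins, steer the growing plus ends with tip-tracking proteins, cut the polymer with severing ATPases and mark it by adding amino acids to tubulin tails, while centrosomal proteins organise its nucleation and the base of cilia. Many of these genes are spliced differently in brain than elsewhere.

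The genes described here were chosen by symbol from a table of alternative RNA processing events. The symbol had to begin with Kif, Klc, Tuba, Tubb, Tubg, Dync, Dnah, Dctn, Mtap, Stmn, Clasp, Mapre, Katn or Ttll, or with Clip or Cep and a digit, and events in the congenic interval chr19:7053631-11866235 were to be left out. The rule took 174 of 13002 events and 82 of 7788 genes. It used no measured value, no event fell to the position filter, and each of the 174 events had every intensity, so none was lost to a low signal. The nearest to the interval were an event of Klc2, 1.94 Mb away (log2 change -0.38), and one of Cep78, 4.18 Mb away (0.01). Of the 82 genes, 37 had a single event and 13 had at least 4.

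Brain RNA was compared between mice homozygous for the Nxf1 B6 or the Nxf1 CAST allele, 3 animals of each, in order to ask whether this allele of an mRNA export factor alters alternative processing at large. All 6 animals belonged to the B6.CAST congenic line, so that the CAST homozygotes also carry CAST sequence around Nxf1 on chromosome 19. They formed 3 same-sex littermate pairs: females of 46 days, males of 22 days (Nxf1 B6) and 23 days (Nxf1 CAST), and females of 23 days. Each brain was hybridised to 1 Affymetrix MJAY array, a design with probe sets for exons and for exon junctions.

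For each path of an event the table gives 4 intensities, namely exclusion and inclusion values of 2 sets (A and B) of 3 arrays each. These are pooled values, from which no spread between animals, SD or p-value can be computed, and every difference below is a description of 2 pooled sets. The table also carries scores and q-values of the authors' own comparison, which are not used here. The sets carry no genotype name. Set B may be Nxf1 CAST and set A Nxf1 B6. The table defines its comparison as mutant over wild type and lists A first, and the methods put Nxf1 CAST over Nxf1 B6. The order of the sets does not settle which is which, and this was not tested, so values are given by set. The measure used here is the log2 change of the exclusion to inclusion ratio, set B over set A. A value above 0 means relatively more of the exclusion form in set B. For alternative starts and ends the table calls one option exclusion and the other inclusion without saying which start or end each is. An event is called past the threshold at an absolute change over 0.5, which is 1.41-fold. Rounding of the intensities to whole numbers can move a member's change by at most 0.03. In RNA of a whole brain, fewer cells of a type and less RNA per cell cannot be told apart.

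The microtubule and motor protein events differed little between the sets. Of the 174, 10 events in 9 genes were past the threshold, which is 5.75% against 7.36% of the 12774 other events and 7.34% of all 12948. By gene the shares were 11.0% of 82 and 11.7% of 7684. The median absolute change was 0.15 over the members and 0.18 over the rest, and 61.5% of member events against 55.4% of the others stayed under 0.2. Thus the members' share past the threshold was near the background, and the 10 events are described below as the largest of a set that did not stand apart.

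**Figure D1:**
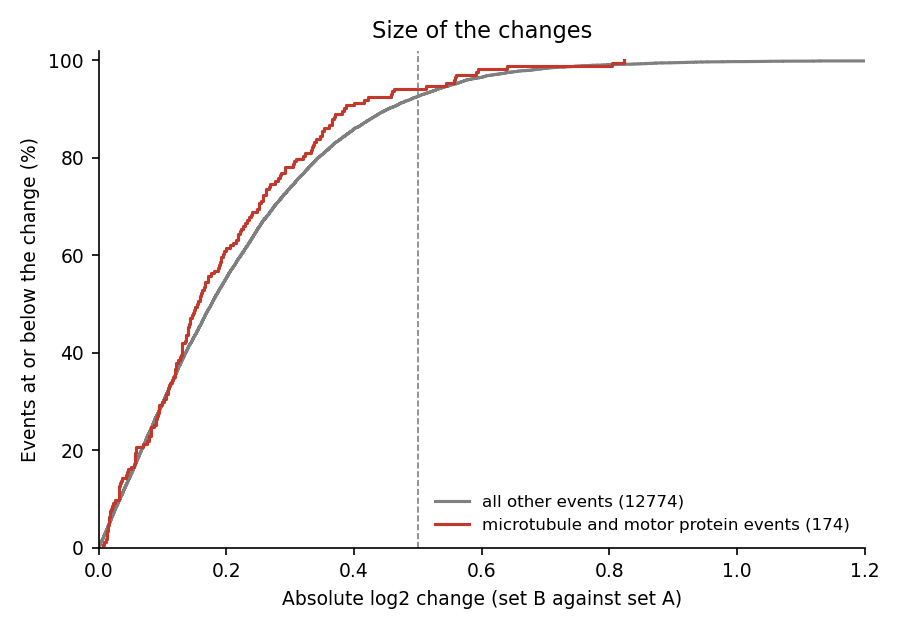
Cumulative share of events (percent) against the absolute log2 change of the exclusion to inclusion ratio, for the 174 microtubule and motor protein events and the 12774 other events; the dashed line is the threshold of 0.5. The members' curve runs close to or above that of the other events up to the threshold, where 5.75% and 7.36% remain.

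The change was more often above 0 than below it. Of 170 member events with an exclusion and an inclusion path, 105 (61.8%) were above 0 and 65 below it. Among the 170 are 25 alternative starts and 39 alternative ends, whose sign does not say which start or end was relatively higher. The share above 0 among the other events was 55.2%. After the median change of all events (0.03) was subtracted, the share was 52.9% among the members and 50% among the others. Past the threshold, 8 of the 170 member events were above 0.5, a share near the 4.51% of other events. Below -0.5 there was 1 of the 170, where the share of other events was 2.75%. The remaining event, in Clip4, has several paths and no direction.

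**Figure D2:**
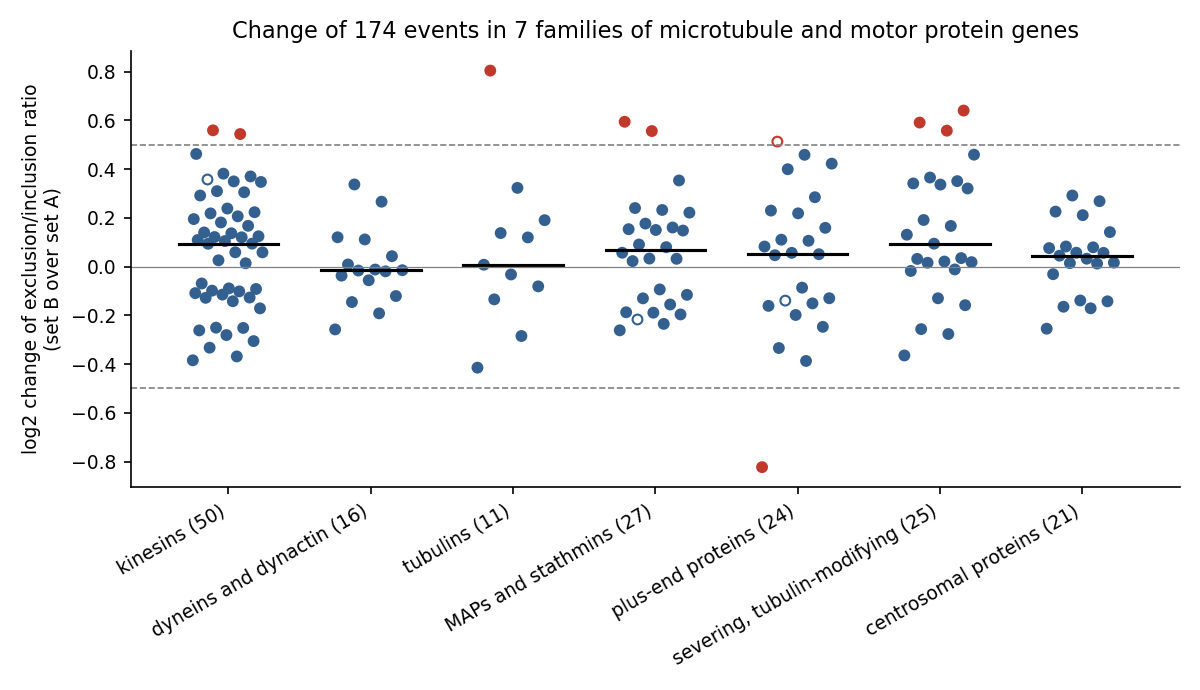
Log2 change of the exclusion to inclusion ratio, set B over set A (vertical axis), of each of the 174 events in 7 families, with the number of events in brackets; black lines are medians over events with a direction, dashed lines mark 0.5 and -0.5, red points are past them, and open circles are the path with the largest change of events without a direction. Dyneins and centrosomal proteins have no point past the lines, and the event of Clasp1 at -0.82 is the lowest. The tubulin family is made up of Tuba4a, Tubg2 and Tubgcp genes.

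Kinesins walk along microtubules on a conserved motor domain and carry cargo, slide microtubules in the spindle or take apart their ends, and the light chains (Klc) couple kinesin-1 to cargo. The 23 genes had 50 events, of which 2 (4.0%, against 7.36% of other events) were past the threshold. One was in Kif15, a mitotic kinesin. Its complex event (chr9:122860250-122875087, build not stated) gave exclusion intensities of 122 (set A) and 153 (set B) and inclusion intensities of 121 and 103, a change of 0.56. The exclusion value was thus higher and the inclusion value lower in set B, with all 4 intensities well under the median of the array table (291).

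The other was in Kif21a, a neuronal kinesin that restrains microtubule growth. Its 129-nt cassette exon (chr15:90779475-90786725) had exclusion intensities of 270 and 296 in sets A and B and inclusion intensities of 867 and 652, a change of 0.54. Here it was the inclusion form that differed, at 0.75 times its level in set A. The same held for the gene's other events in part: all 4 had lower inclusion intensities in set B, but their changes spread from -0.25 for the 39-nt cassette to 0.54. Both complex events of Kif21a overlap the 129-nt cassette, and their changes were 0.12 and -0.17, so overlapping probe sets of 1 region did not give 1 value.

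Just under the threshold came the 42-nt cassette of Kif23, a kinesin of the midzone of dividing cells, with a change of 0.46 (exclusion 108 and 151, inclusion 67 and 68). Its cassettes of 79 and 312 nt were at 0.38 and 0.29. In each of these 3 cassettes the exclusion intensity was higher in set B while the inclusion intensity was within 3 units of set A for the 42- and 79-nt exons. The last Kif23 event, an alternative end, was at -0.09. Kif17, which carries receptor cargo into dendrites, had 5 events between -0.25 and 0.03, 4 of them below 0. The 4 events of Kif2a, which depolymerises microtubule ends, lay between -0.13 and 0.18. Its summed exclusion and inclusion signal was lower in set B by a median of 0.22 on the log2 scale (-0.22), while the ratio of its forms differed by at most 0.18. The smallest kinesin change was in Kif1b, a transporter of synaptic vesicle precursors, at 0.01 (exclusion 153 and 140, inclusion 1091 and 989).

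One kinesin event may not belong to its gene. A cassette named for Kif13a (segment length 147 nt) is placed on chromosome 16, while the RefSeq annotation and the other Kif13a events of the table put the gene on chromosome 13. Its change was 0.24, and the counts past the threshold are the same without it. The 3 light chain genes had 1 event each, at 0.10 (Klc3), -0.10 (Klc1) and -0.38 (Klc2).

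Dyneins move toward microtubule minus ends, cytoplasmic dynein as the retrograde motor of axons with dynactin as its activator, axonemal dyneins as the force of beating cilia. None of the 16 events in 11 genes was past the threshold, where the share among other events was 7.36%. These are few events. Their median absolute change was 0.08 against 0.18 among other events. The largest was an alternative end of Dnahc9, an axonemal heavy chain, at 0.34 (exclusion 143 and 152, inclusion 202 and 170). The smallest was an alternative end of Dync1li1, a light intermediate chain of cytoplasmic dynein, at 0.01 (exclusion 1406 and 1383, inclusion 90 and 88). By complex, the 6 cytoplasmic dynein events had a median absolute change of 0.04, the 6 axonemal events 0.10 and the 4 dynactin events 0.12. For Dnahc8 the 61-nt cassette had both forms higher in set B (exclusion 188 and 254, inclusion 281 and 420), the largest difference of summed signal among all members (0.52), while the ratio of its forms changed by only -0.15. The summed signals of the other Dnahc8 events differed by 0.11 and 0.14.

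Tubulins form the polymer itself, and gamma-tubulin with its complex proteins (Tubgcp) nucleates it. The family's 11 events in 6 genes were 1 of Tuba4a, 3 of Tubg2 and 7 of Tubgcp genes, with no beta-tubulin. Past the threshold was 1 (9.09%, against 7.36% of other events). A complex event of Tubgcp5, a component of the gamma-tubulin ring complex, had exclusion intensities of 129 and 193 and inclusion intensities of 440 and 377, a change of 0.80 (chr7:63072006-63074104). Exclusion was 1.5 times and inclusion 0.857 times its level in set A, so that the summed signal was the same (0.00). A neighbouring 66-nt alternative 5′ splice site of Tubgcp5 was at 0.19. The 1721-nt intron of Tubgcp3 was next in the family at -0.41 (exclusion 254 and 194, inclusion 219 and 223), which is under the threshold. The smallest change of all 174 events was in Tuba4a, an alpha-tubulin, at 0.01 (exclusion 194 and 188, inclusion 8846 and 8528).

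Microtubule-associated proteins coat and space the polymer in axons and dendrites, whereas stathmins bind free tubulin dimers. The table names several by older symbols, so that Mtap1a, Mtap2, Mtap4 and Mtap9 are the genes now called Map1a, Map2, Map4 and Map9. Of 27 events in 12 genes, 2 (7.41%, against 7.36% of other events) were past the threshold. Mtap1a, which is abundant in mature neurons, had an alternative start (chr2:121115335-121124332) with exclusion intensities of 406 and 506 and inclusion intensities of 1313 and 1084, a change of 0.59. None of its 4 intensities was dim, and both forms moved in opposite directions, 1.25 times and 0.826 times. The second Mtap1a event, a cassette of 8104 nt that is the longest among the members, was at 0.18.

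Mtap9, a spindle-binding protein, had a complex event with a 55-nt segment at 0.56 (chr3:82162177-82162952). Its exclusion intensities of 64 and 74 were near the lowest of the table (43), and its inclusion intensities were 295 and 232. Mtap2, the classic dendritic protein, had 6 events between -0.24 and 0.23, with 4 below 0. Mtap4, found in most tissues, had 5 events within 0.21 of 0, on intensities up to 4496. The 4 with a direction lay between -0.20 and 0.08. The remaining Mtap4 event has several paths and no direction. Its paths were at 0.02, 0.05 and -0.21, the last being the dimmest (202 and 170). The smallest change of the family was in Mtap1s at 0.02 (exclusion 379 and 382, inclusion 131 and 130). The 3 stathmin events reached at most 0.26 in absolute size.

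Because the Mtap1a event is a choice of start, the RefSeq sequence before its only listed start is shown, as 250 bases 5′ to 3′ with capitals marking each GGGCGG or TATAAA on either strand (CCGCCC and TTTATA as read here). These coordinates are of GRCm38.p6 and are not those of the event, whose build is not stated.
Map1a (chr2:121289352-121289601, plus strand): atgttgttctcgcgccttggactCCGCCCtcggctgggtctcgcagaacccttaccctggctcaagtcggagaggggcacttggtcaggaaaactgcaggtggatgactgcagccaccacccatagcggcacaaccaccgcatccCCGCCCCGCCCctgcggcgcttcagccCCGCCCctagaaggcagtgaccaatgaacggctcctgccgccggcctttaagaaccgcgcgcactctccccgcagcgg
The window holds 4 GGGCGG matches, of which 2 overlap, no TATAAA and 21 CG dinucleotides. Over the 84 windows found for 63 of the 82 genes, 41.7% held GGGCGG and 8.33% TATAAA, against 32.7% and 12.4% of 32851 windows of that length. The median number of CG dinucleotides was 17.5 in the members' windows and 6 in all 32851. The latter were not matched to the genes with events, so these differences are not shown to be particular to the members. A match of letters is a description of the window, and nothing about a factor follows from it.

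Plus-end proteins ride on growing ends and link them to the cell cortex: the EB proteins (Mapre) bind the end itself, and CLASP and CLIP proteins are recruited there. Their 7 genes had 24 events, 2 of them (8.33%, against 7.36% of other events) past the threshold. The largest change of all members was the 48-nt cassette of Clasp1 (chr1:120406953-120418403). Exclusion probe sets read 239 (set A) and 132 (set B) and inclusion probe sets 787 and 769, a change of -0.82 or 1.77-fold. The inclusion form was thus within 0.03 on the log2 scale of set A, and the exclusion form was at 0.552 times its level. At 48 nt the exon keeps the reading frame.

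Other Clasp1 events also had values below 0. The retained intron of 1396 nt was at -0.39 (exclusion 192 and 154), the 117-nt cassette at -0.33 (exclusion 174 and 121), the alternative end at -0.20 and the 108-nt cassette at -0.09. Only the 27-nt cassette was above 0, at 0.11. In all, 5 of 6 Clasp1 events were below 0. The alternative end stops at the base where the event of the 48-nt cassette begins, so these events are not all separate regions. Its paralogue Clasp2 had 4 events within 0.16 of 0, the smallest being a pair of 27-nt exons at 0.05 (exclusion 2497 and 2670, inclusion 226 and 234). In Clip1, a tip-tracking protein that helps to load dynein, 4 of 5 events were above 0, up to 0.40 for the 33-nt cassette. An alternative start of Mapre2, the EB2 gene, was just under the threshold at 0.46 (exclusion 662 and 827, inclusion 132 and 120), and the second Mapre2 event, another alternative start, was at 0.08.

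The Clip4 event past the threshold (chr17:72119037-72139207) compares 3 paths with 1 common form. Clip4 holds the CAP-Gly domain by which CLIP proteins bind microtubules. The common form had intensities of 598 and 552. The first path had 106 and 114, the second 82 and 108, and the last 194 and 213, so that their changes were 0.22, 0.51 and 0.25. All 3 paths were higher in set B relative to the common form, and only the dimmest of them passed 0.5. The other 4 events of Clip4 ranged from -0.25 for a 141-nt cassette to 0.42 for an alternative end. RefSeq lists 3 starts for Clip4, of which the later ones lie 11608 and 12256 bases after the first, a distance smaller than the event's span of 20170 bases. The event's name carries the mark s0, as do 2173 of 2248 alternative starts and 0 of 2522 alternative ends of the table. The event itself is of neither type, and its own type was not counted. Member events of other types carry the mark too, such as those with several paths in Clasp2 and Mtap4 and a complex event of Kif2a. The mark alone therefore does not make the Clip4 event a choice of start. Which path belongs to which start was not determined. The sequence before each start is shown with the same marking.
Clip4, first start (chr17:71769441-71769690, plus strand): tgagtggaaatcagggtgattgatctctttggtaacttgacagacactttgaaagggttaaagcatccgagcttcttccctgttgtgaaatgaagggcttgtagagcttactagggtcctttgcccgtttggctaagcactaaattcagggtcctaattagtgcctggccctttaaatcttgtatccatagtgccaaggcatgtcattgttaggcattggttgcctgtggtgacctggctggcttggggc
Clip4, second start (chr17:71781049-71781298, plus strand): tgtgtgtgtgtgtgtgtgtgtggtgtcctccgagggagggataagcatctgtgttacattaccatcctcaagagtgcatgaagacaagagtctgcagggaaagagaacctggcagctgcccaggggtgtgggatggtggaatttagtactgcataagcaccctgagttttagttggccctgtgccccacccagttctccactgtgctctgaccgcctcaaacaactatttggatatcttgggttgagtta
Clip4, last start (chr17:71781697-71781946, plus strand): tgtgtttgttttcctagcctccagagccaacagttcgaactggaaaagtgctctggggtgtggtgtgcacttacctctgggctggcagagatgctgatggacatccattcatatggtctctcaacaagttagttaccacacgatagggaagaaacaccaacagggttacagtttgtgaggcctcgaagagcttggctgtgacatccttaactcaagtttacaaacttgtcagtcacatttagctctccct
None of the 3 windows holds GGGCGG or TATAAA, and they have 2, 2 and 3 CG dinucleotides, fewer than the window of Map1a.

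Katanins cut microtubules, and tubulin tyrosine ligase-like enzymes (Ttll) add glutamate or glycine chains to tubulin, most densely in cilia and axons. Their 10 genes had 25 events, of which 3 in 2 genes were past the threshold, a share of 12.0% against 7.36% of all other events. Counted by gene this was 2 of 10, and 2 of the 3 events overlap. The family was also the dimmest of the 7, with a median lowest intensity of 133 against 193 over all members and 172 among other events. Dim events passed the threshold more often, as given below, but the family's 3 had lowest intensities of 92, 116 and 205. Whether dimness has a part in the family's share was not tested. Katnal2, a katanin-like ATPase, had a 126-nt cassette (chr18:77257994-77285912) with exclusion intensities of 205 and 338 and inclusion intensities of 1257 and 1376, a change of 0.59. Its complex event (chr18:77249784-77285912), which contains that cassette, had 997 and 1444 for exclusion and 99 and 92 for inclusion, a change of 0.64. In both the exclusion form was higher in set B, 1.65 times for the cassette and 1.45 times for the complex event. The inclusion form was at 1.09 and 0.929 times its level in set A. The span they share is 27919 bases. The remaining Katnal2 events, an alternative 3′ splice site and an alternative end, were at 0.02 and -0.13. Summed over both forms, the signal of the complex event was also higher in set B (0.49).

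Ttll3, a glycylating enzyme of ciliary tubulin, had the most events, 7. Its 196-nt cassette (chr6:113349765-113355292) had exclusion intensities of 116 and 164 and inclusion intensities of 380 and 365, a change of 0.56. An alternative start was just under the threshold at 0.46 (exclusion 140 and 169, inclusion 443 and 389), and a 98-nt cassette inside it was at 0.32 (exclusion 152 and 188). A 37-nt alternative 3′ splice site was at 0.17. By contrast the first alternative start and both alternative ends were within 0.02 of 0, the smallest of the family being at -0.01 (exclusion 148 and 145, inclusion 657 and 649). That last event covers the 196-nt cassette, which differed in the same pooled RNA. The 4 events of Ttll10 spread from -0.26 to 0.34, with both forms of its retained intron higher in set B (exclusion 607 and 729, inclusion 261 and 306).

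RefSeq lists 2 starts for Ttll3, 3203 bases apart, and the table has 2 alternative start events, at 0.46 and 0.02. How the RefSeq starts relate to these events was not determined. The sequences before the 2 RefSeq starts are shown with the marking used above.
Ttll3, first start (chr6:113389010-113389259, plus strand): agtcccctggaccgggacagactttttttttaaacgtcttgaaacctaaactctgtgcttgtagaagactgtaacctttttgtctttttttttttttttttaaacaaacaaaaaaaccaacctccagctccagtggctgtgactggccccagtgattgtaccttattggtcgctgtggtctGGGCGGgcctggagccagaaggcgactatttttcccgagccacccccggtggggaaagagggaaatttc
Ttll3, second start (chr6:113392213-113392462, plus strand): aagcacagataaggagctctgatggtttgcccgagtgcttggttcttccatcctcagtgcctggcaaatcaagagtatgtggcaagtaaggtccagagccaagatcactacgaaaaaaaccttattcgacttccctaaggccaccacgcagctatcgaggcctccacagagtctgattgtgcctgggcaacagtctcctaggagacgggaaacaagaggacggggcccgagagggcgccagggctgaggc
The first window holds 1 GGGCGG match and 7 CG dinucleotides, the second no match and 9, and neither holds TATAAA.

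**Figure D3:**
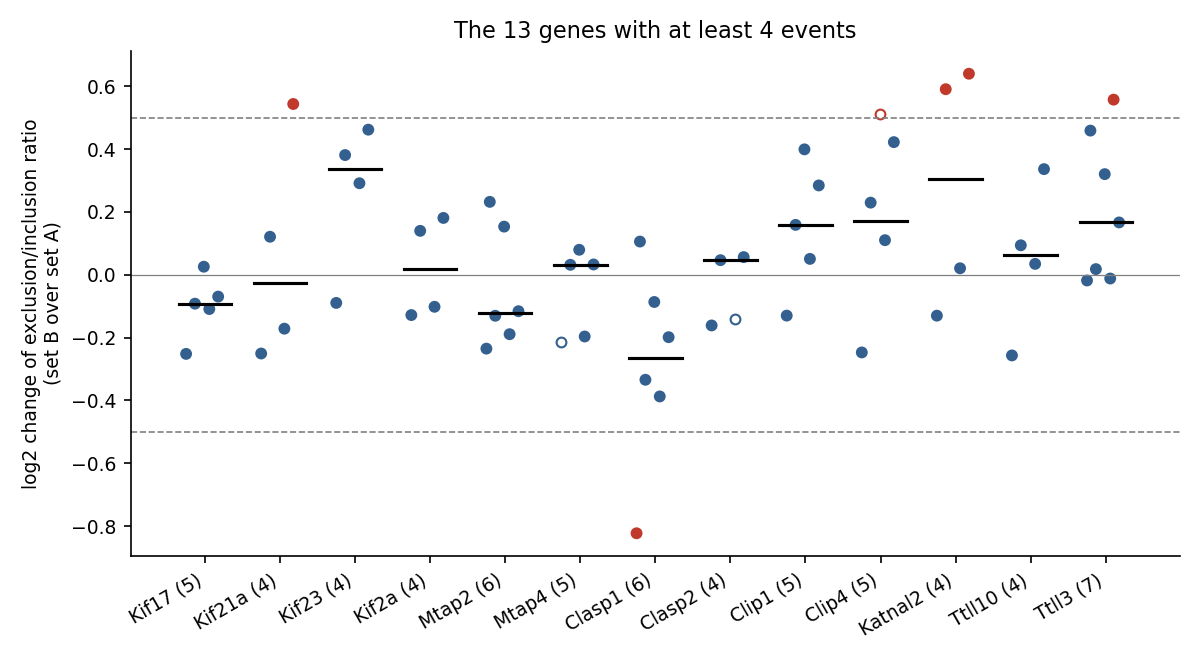
Log2 change of the exclusion to inclusion ratio, set B over set A (vertical axis), of each event of the 13 genes with at least 4 events, with the number of events in brackets; black lines are medians over events with a direction, red points are past 0.5 or -0.5 (dashed lines) and open circles are events without a direction. Clasp1 has 5 of 6 points below 0, whereas Katnal2 and Ttll3 each hold events near 0 beside events past the threshold.

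Centrosomal proteins build the centriole and its surrounding matrix. None of their 21 events in 13 genes was past the threshold, against 7.36% of other events, and the median absolute change was 0.08 against 0.18. These are few events, and no difference from the rest was tested. The largest was a complex event of Cep110, now called Cntrl, at 0.29 (exclusion 135 and 147, inclusion 290 and 258), and the smallest a 78-nt cassette of Cep57 at 0.01 (exclusion 314 and 357, inclusion 165 and 186). Many of these genes were dim, with a median lowest intensity of 146 against 193 over all members.

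Among the 9 events past the threshold that have a direction, the exclusion intensity changed more than the inclusion intensity in 7, and the forms changed in opposite directions in 7. The shares among the 900 other events past the threshold with a direction were 72.6% and 82.0%. Mtap9 and Kif21a were the exceptions in which inclusion changed more, and Clasp1 and the Katnal2 cassette were those in which both forms changed the same way.

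**Figure D4:**
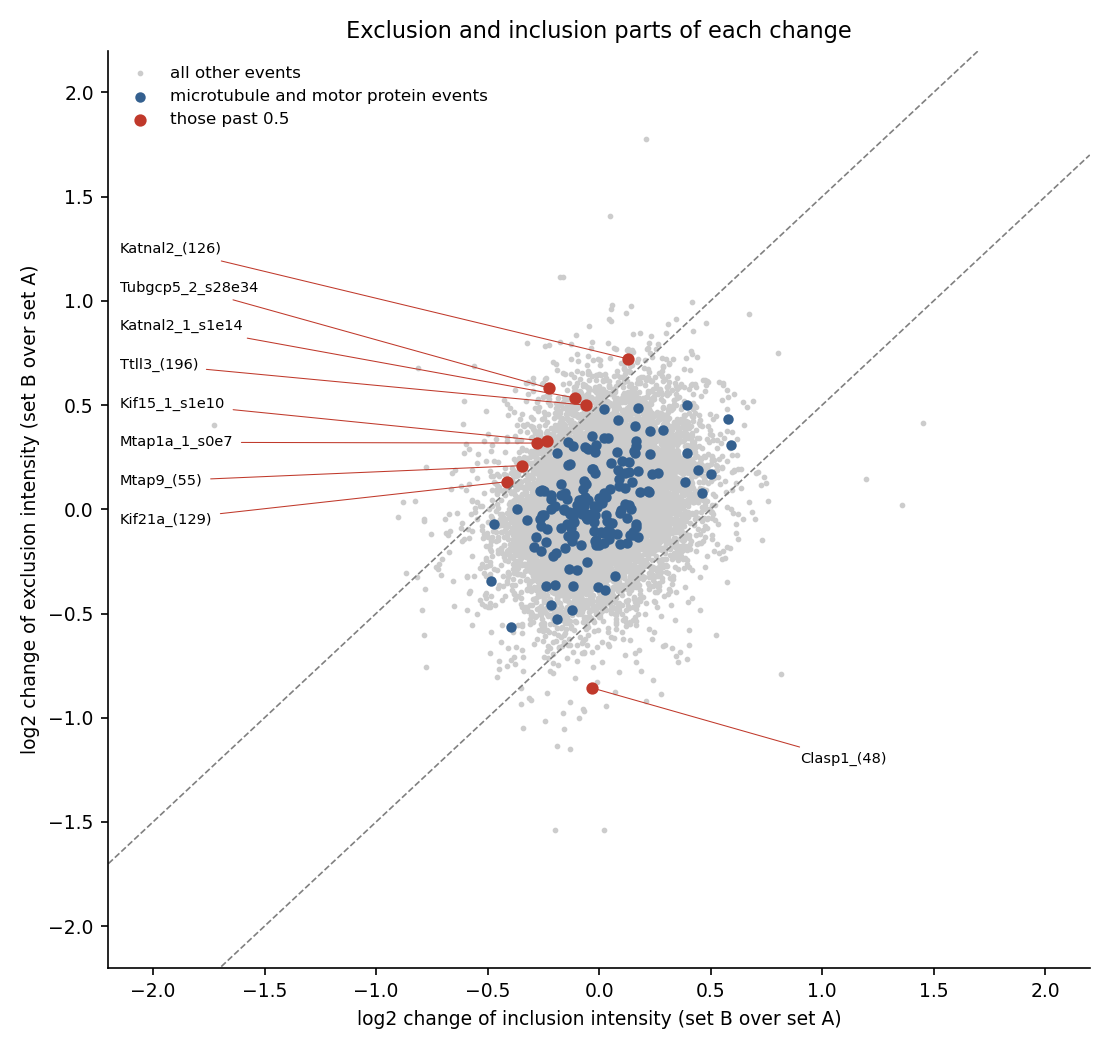
Log2 change of the exclusion intensity (vertical axis) against that of the inclusion intensity (horizontal axis), set B over set A, for all events with a direction; grey points are other events, blue points microtubule and motor protein events and red points those past a change of 0.5, which the dashed lines mark. The Clasp1 event at -0.86 for exclusion and -0.03 for inclusion is the only red point below the lines.

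**Figure D5:**
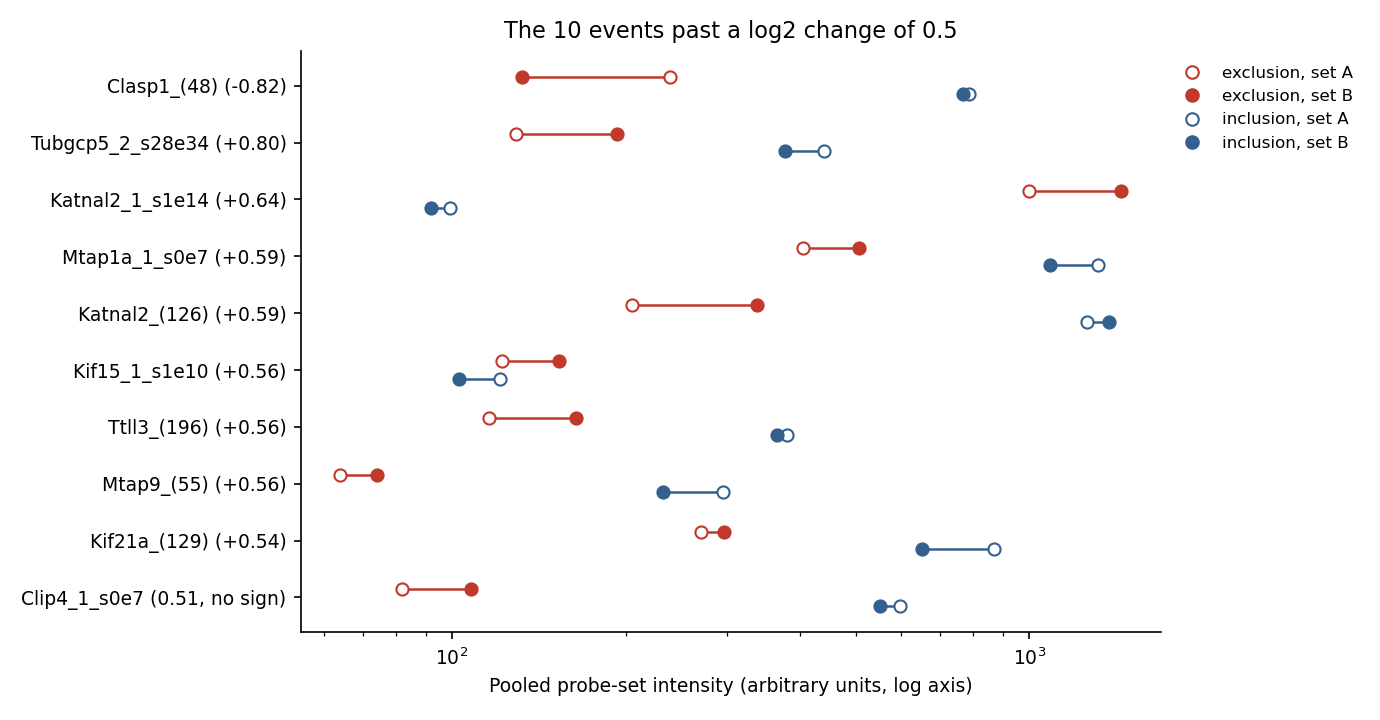
Pooled intensities (arbitrary units, log axis) of the exclusion (red) and inclusion (blue) probe sets in set A (open) and set B (filled) for the 10 events past the threshold, with the log2 change in brackets; for Clip4 the second path is drawn as exclusion and the common form as inclusion. The exclusion value is higher in set B for every event but the 48-nt cassette of Clasp1, where it is 132 against 239.

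Dim events passed the threshold more often. Where the lowest of the 4 intensities was under 100, 3 of 28 member events (10.7%) and 10.5% of other events did so. Between 100 and 200 it was 4 of 62 (6.45%) and 7.65%, and from 200 upward 3 of 84 (3.57%) and 5.55%. The 3 bright ones were those of Mtap1a, the Katnal2 cassette and Kif21a. The members' share followed that of the other events in each of these ranges.

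The kinds of event were those of the table as a whole: 53 cassettes (30.5% of members, 29.0% of the rest), 39 alternative ends, 25 alternative starts, 20 complex events, 11 retained introns, 11 alternative 3′ and 9 alternative 5′ splice sites. Past the threshold were 4 of 53 cassettes (7.55%, against 8.57% of other cassettes), 4 of 20 complex events (20.0% against 8.19%), 1 alternative start and the Clip4 event. The complex events are few and include 1 that contains a counted cassette. No alternative end was, and the share among the others was also lowest but one there, at 2.82%. No retained intron or alternative splice site of a member was past it either, with shares of 9.97%, 9.22% (3′) and 10.9% (5′) among the others. A name's bracketed number is the length of its segment, which fits the genomic span of 995 of 1061 retained introns with 2 bases added. By this number 34 of 53 member cassettes (64.2%) were a multiple of 3 nt long, which keeps the reading frame, against 53.1% of 3685 others, and the median length was 99 nt against 101. Of the 4 cassettes past the threshold, the 48-, 126- and 129-nt exons are multiples of 3 and the 196-nt exon of Ttll3 is not.

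Microtubule genes whose symbols the rule leaves out were listed for comparison. Of 66 listed symbols 40 were in the table, with 108 events. Some symbols not found, such as Map1a, Map2, Map4 and Map9, are newer names of members. Of the 108 events, 8 (7.41%, against 7.36% of events outside the members) were past the threshold, 5 above 0.5 and 3 below -0.5. By gene this was 7 of 40 (17.5%), against 11.7% of genes outside the members. A gene counts when any of its events passes, and the genes outside the members number 7684 with 12774 events. The listed genes thus have more events each, and the shares by gene are not on equal terms. A 172-nt alternative 5′ splice site of Dcx, doublecortin of migrating neurons, was at 0.68 (exclusion 76 and 103, inclusion 255 and 215). Tacc2, which recruits a microtubule polymerase to centrosomes, had a 90-nt cassette at -0.64 and a 126-nt cassette at 0.54, so that events of 1 gene differed in opposite directions. An alternative end of Mapk8ip3, an adaptor between kinesin-1 and cargo, was at 0.64 (exclusion 320 and 411, inclusion 508 and 419). Hdac6, the tubulin deacetylase, had a 74-nt alternative 5′ splice site at -0.57 (exclusion 153 and 113). An alternative start of Gas2, which links actin and microtubules, was at 0.56, an alternative end of Dclk2, a doublecortin-like kinase, at 0.56 and a 60-nt cassette of Camsap1, a minus-end binding protein, at -0.50.

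Markers of cell types were compared by the summed exclusion and inclusion signal. The 4 neuronal genes with events changed by -0.10 to 0.17 on the log2 scale, the 3 of immature neurons by -0.28 (Nnat) to 0.01, the 5 of astrocytes by -0.16 to 0.12, the 4 of oligodendrocytes by -0.08 to 0.01 and the 2 of microglia by -0.10 to 0.06. The 2 of ciliated ependyma were at 0.00 (Dnahc11) and 0.07 (Foxj1). Stmn2 and Dnahc11 are also members, so these lists are not separate from them. The highest intensity of each neuronal gene lay between 4573 and 12087, of each oligodendrocyte gene between 1376 and 11314, of each astrocyte gene between 416 and 10330, of each microglial gene between 258 and 459 and of each immature neuron gene between 785 and 3027. It was 1940 for Foxj1, 170 for Dnahc11, 298 for Folr1 of choroid plexus and 353 for Acta1 of muscle, and none of the 3 liver markers had an event. These are different probe sets, whose levels do not measure the makeup of the tissue. Over all events the summed signal changed by a median of 0.00, with 90% between -0.26 and 0.31. Whether cell makeup has a part in any of the splicing values was not tested.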

How the data were processed

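Brain RNA of 6 mice was hybridised to Affymetrix MJAY arrays, which the authors processed with Affymetrix Power Tools per the labels (version, normalisation and genome build not given in the sources used here). The deposited table holds intensities, as whole numbers pooled over 3 arrays a set, for 26514 paths of 13002 events. It lists a paired and a standard comparison, whose intensities differed in 0 of 26304 paths with both. Its columns of separation scores and q-values hold the authors' own comparison and were not used. Of all paths, 115 had no intensities, which left 12948 events.

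The log2 change of the exclusion to inclusion ratio was computed for each path, the path with the largest absolute change was kept for each event, and the sign was taken from the exclusion path. No background filter was applied. The threshold of 0.5 is the fold part of the study's criterion, whose second part, a limit on the q-value, was not applied, so more events pass here. With 1 pooled value a set there was no test, and the number of arrays limits the precision. Symbols were matched to RefSeq (68 of 82 by symbol, 14 by synonym), which also gave the sequences. Scripts ran in Python 3.11.15 with pandas 2.3.3. Their arithmetic was checked on simulated data without noise, which hold no variation between arrays or animals. The members and gene lists were chosen with earlier results of these data known. The text names every member event past the threshold, the largest and smallest of each family, the 3 events on either side of the threshold, genes with at least 4 events, and other pathway genes past the threshold. Klc genes, the Kif13a event, Dnahc8, Tubgcp3 and second events of named genes were added after their values were seen.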

Additional observations from a re-analysis of the deposited data

How the results depend on the processing

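The count of 10 member events past the threshold depended most on the threshold and on dim probe sets. It was 3 of 174 at a threshold of 0.6 (1.72%, against 3.44% of other events) and 0 at a threshold of 1 (0.227% of other events), and it was 3 of 85 when paths with an intensity under 200 were left out (3.53% and 5.42%). At 0.4 it was 15, with 8.62% against 14.0%. Under the other alternatives it stayed between 7 and 10, and the members' share was below that of the other events in each. The median absolute change of 0.15 became 0.13 without intensities under 200, 0.23 with 1 event a gene (0.24 for other genes), 0.16 after centring on all events, by event type or without the Cep genes, and 0.17 with overlapping events counted once. The share above 0 was 52.9% after either centring and between 59.7% and 67.1% otherwise. Counting overlapping events once and leaving out the Kif13a event on another chromosome were chosen after seeing the data. The alternative that leaves out symbols that match by letters only gave no value of its own, since no such symbol was among the members. No paired analysis was possible because the intensities used are pooled over the 3 animals of each set, and for the same reason no animal could be left out in turn. The paired scores and q-values of the table are the authors' comparison and were not used. Intensities carry a background, so that a low value bounds a form's level without showing its absence.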
